A study of Mus musculus with 3 samples.

Results

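Cholesterol genes were followed in brown adipocytes during the first 2 h of β-adrenergic stimulation. The set holds 31 mouse genes of cholesterol synthesis, uptake and efflux. They were chosen by name for what they encode, with earlier results of these data known. Each was read from the brightest probe set, by mean signal over the arrays, among those that carry 1 gene symbol, and 28 of the 31 had such a probe set, of 18194 genes on the array that did. A gene was read if that probe set reached a signal of 100 on 1 or more arrays. This left 22 cholesterol genes among 6896 genes in all, and each of the 22 reached 100 on all 3 arrays, so none of them passed through a single time point. The cells were iBATs, immortalized brown preadipocytes differentiated in culture with insulin and indomethacin and studied at day 8. They received isoproterenol (ISO, 1 μM in the legends of the study), an agonist of all β-adrenergic receptors, for 0, 1 or 2 h, and 1 Affymetrix array was hybridized per time point. The 3 arrays thus share the line, its immortalization, the differentiation mix and a medium with serum, and differ in the time with ISO. How many cultures gave the RNA of an array is not stated in the sources used here.

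Cells adjust their cholesterol by making it, taking it up, storing it and exporting it. Synthesis runs from acetyl-CoA through mevalonate and isoprenoid diphosphates to squalene, which is closed to lanosterol and trimmed to cholesterol. The genes of this route are classic targets of SREBP2, a membrane-bound transcription factor that SCAP escorts out of the endoplasmic reticulum when sterols are low, and that INSIG proteins hold back when sterols are high. Excess sterol works in the other direction through the oxysterol receptors LXRα and LXRβ (Nr1h3 and Nr1h2), which raise the export pumps Abca1 and Abcg1 and the ubiquitin ligase Mylip that limits lipoprotein uptake.

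Expression was given as the MAS5 signal, a linear brightness per probe set that the software scales to the same trimmed mean on every array. With 1 array per time, the spread between cultures could not be measured and no test was run. A gene is called higher or lower at a log2 ratio of at least 0.8 in size (1.74-fold), the limit that the study applied at 1 h, and such a call is a size and not a test. As a yardstick, the robust spread of the log2 ratio over the 6896 genes was 0.16 between 0 h and 1 h, 0.24 between 0 h and 2 h, and 0.18 over the second hour, which holds real change as well as noise. The spiked hybridization controls had medians of 0.07 (1 h over 0 h), -0.06 (2 h over 0 h) and -0.15 (2 h over 1 h) on the same scale. Adipocyte markers were read for 5 of 5 genes on the array and brown adipocyte markers for 5 of 6, Dio2 being the exception with a signal of at most 9.8. None of 10 macrophage and leukocyte markers and none of 4 endothelial markers reached 100, with highest signals of 93.2 and 9.3. The summed signal of the macrophage and leukocyte list was 150.6, 139.7 and 222.4 on the arrays of 0, 1 and 2 h. Its rise at 2 h lay mainly in Cd14 (34.6, 41.8 and 93.2) and Cd68 (58.9, 54.5 and 81.2). Csf1r, Itgam, Fcer1g and Aif1 were lower at 2 h than at 0 h, and the other genes of that list stayed at or below 10.6. The part of such cells in the values below was not tested. Of 5 preadipocyte and fibroblast markers 4 were read. Of the adipocyte, brown adipocyte and fibroblast markers read, only Ucp1, the uncoupling protein of brown fat, was called, at 1.31 and 1.49 on the log2 scale at 1 h and 2 h. The next highest was Pparg, the master regulator of fat cell formation, at 0.66 at 2 h, and the lowest was Prdm16, a brown fat regulator, at -0.63. Prdm16 had signals of 107.5, 77.5 and 69.3 at 0, 1 and 2 h. It was thus read only through the 0 h array, where it was highest, so its lower values are partly due to the filter. The comparisons of 1 h and 2 h with 0 h share the 0 h array, and the step from 1 h to 2 h shares an array with each of them.

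After 2 h of ISO, 2 of the 22 genes were called higher than at 0 h. They were Insig1, whose product holds the SREBP2 escort in the endoplasmic reticulum, and Cyp51, the demethylase that acts on lanosterol. Among all genes read 2.73% were called higher in this comparison. No cholesterol gene was called lower at 2 h, against 0.812% of all genes. None was called at 1 h, where 1.58% of all genes were higher and 0.218% lower, and none between 1 h and 2 h, where 0.667% were higher and 0.319% lower.

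Smaller differences lay mostly on 1 side. At a log2 ratio of at least 0.4 (1.32-fold), a limit set after the values were seen, 8 of the 22 genes were higher at 2 h than at 0 h, which is 36.4% against 7.31% of all genes. Besides Insig1, these 8 were the synthesis enzymes Hmgcs1, Pmvk, Sqle, Cyp51, Msmo1, Hsd17b7 and Sc5d. At the same limit 1 gene of the 22, Mylip, was lower, which is 4.55% against 9.63% of all genes. The signal increased in both hours for 13 of the 22 genes (59.1%), against 17.9% of all genes, and decreased in both hours for 4 of them (18.2%), against 33% of all genes. Over the 22 genes the log2 ratio had a median of 0.11 at 1 h and 0.18 at 2 h, beside -0.02 and -0.07 over all genes read. At 2 h the median was 0.48 over the 13 synthesis enzymes read and 0.03 over the other 9 genes read. This split was not planned with the role groups. With the dim genes included, the median over 17 synthesis enzymes was 0.10, since the 4 below 100 all had lower signals at 2 h, and that over the 11 other genes was again 0.03. Over all 18194 genes, dim ones included, it was -0.07.

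**Figure D1:**
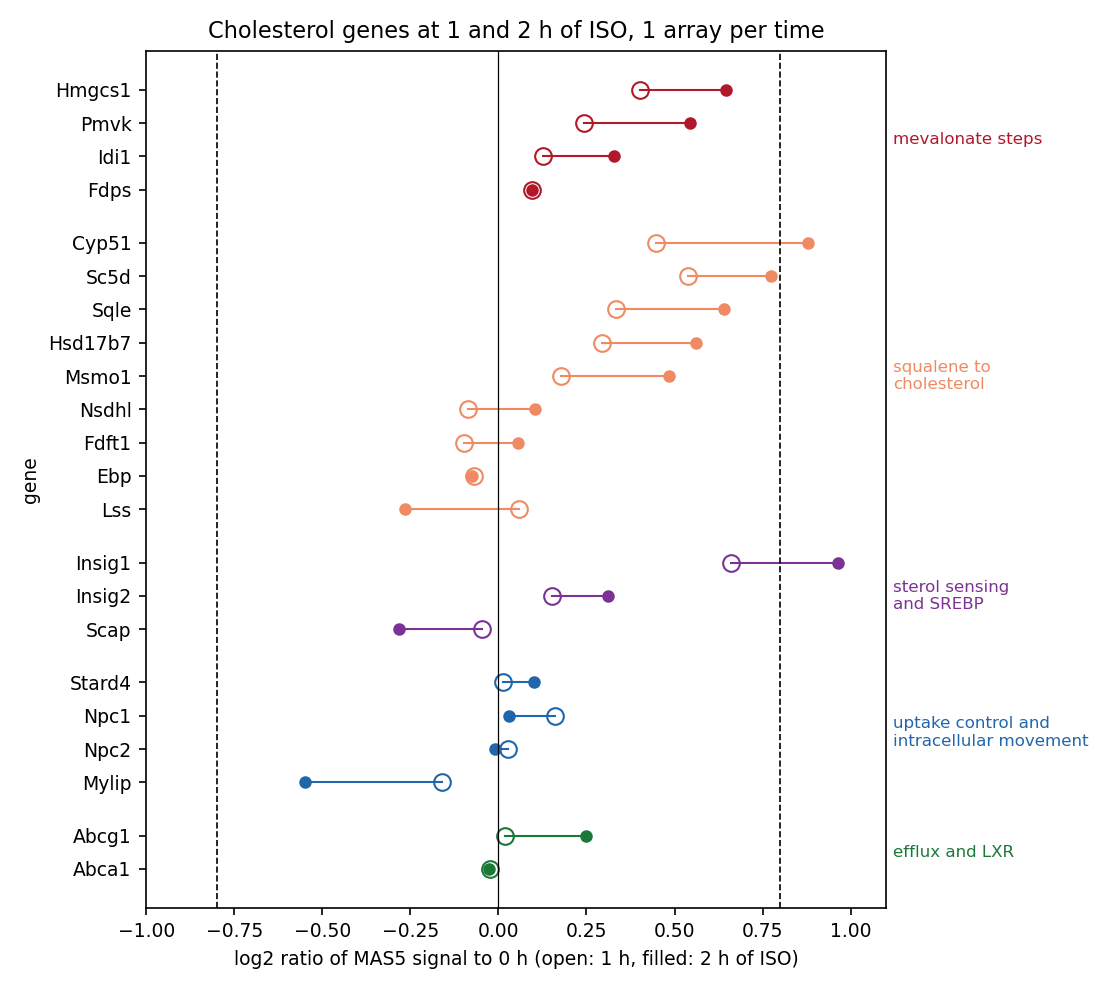
Log2 ratio of MAS5 signal to 0 h (horizontal axis) for the 22 cholesterol genes that were read (1 row each, grouped by role), with open circles for 1 h and filled circles for 2 h of ISO and 1 array per time point. Dashed lines mark a log2 ratio of 0.8 in either direction, which Insig1 (0.97) and Cyp51 (0.88) pass at 2 h.

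**Figure D2:**
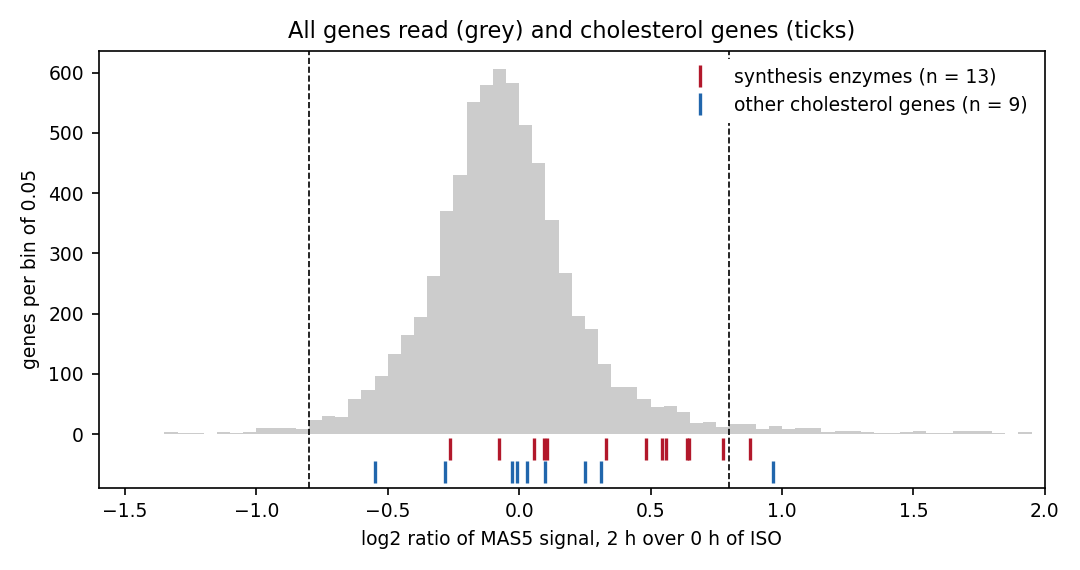
Distribution of the log2 ratio of MAS5 signal at 2 h over 0 h of ISO for all 6896 genes read (grey bars, number of genes per bin of 0.05), with ticks below for 13 synthesis enzymes (red) and the 9 other cholesterol genes (blue). Dashed lines mark 0.8 in either direction and 43 genes lie beyond the right edge at 2.0; the median is 0.48 for the synthesis enzymes and -0.07 for all genes.

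The early, mevalonate part of the pathway was read through 4 of its 7 genes. Hmgcs1, the cytosolic synthase of HMG-CoA, had signals of 1661.8, 2195.5 and 2601.9 at 0, 1 and 2 h, the order used for every gene below. The signal was thus highest on the last array, with log2 ratios of 0.40 at 1 h and 0.65 at 2 h, and genes of similar signal had a spread of 0.12 at 2 h. All 4 of its probe sets that reached 100 were above 0 h at both times, from 0.32 to 0.46 at 1 h and from 0.49 to 0.68 at 2 h. The one read for the gene has a suffix that marks probes which may also match other transcripts, and the pair without such a suffix came to 0.68 and 0.61 at 2 h. The probe sets read for Pmvk, Fdft1, Lss, Msmo1 and Hsd17b7 have such a suffix too. For Pmvk and Msmo1 it is _a_at, and for Fdft1, Lss and Hsd17b7 it is _x_at or _s_at. Pmvk and Msmo1 had no other probe set at or above 100. Pmvk, which phosphorylates phosphomevalonate, measured 223.1, 264.1 and 325.0, a log2 ratio of 0.54 at 2 h.

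Idi1, the isomerase of the isoprenoid units, was at 509.5, 556.7 and 640.2, a log2 ratio of 0.33 at 2 h. Its other probe set at or above 100 went from 186.6 to 216.2 and 323.2 and came to 0.79 at 2 h, just under the limit of a call. The probe sets of Idi1 therefore had the same direction and differed in size. Fdps, which joins isoprenoid units to farnesyl diphosphate, measured 451.2, 481.7 and 482.2, a log2 ratio of 0.10 at 2 h. The median of these 4 genes was 0.19 at 1 h and 0.44 at 2 h. The kinase gene Mvk and the decarboxylase gene Mvd, which lie next to Pmvk in the route, stayed below 100 and were not read. Acat2, the thiolase of the first step, had no probe set of 1 symbol here.

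The branch from squalene to cholesterol was read through 9 of 11 genes. Cyp51 had signals of 218.4, 297.8 and 401.8. The gain continued through both hours, with log2 ratios of 0.45 at 1 h, 0.88 at 2 h and 0.43 for 2 h over 1 h, the last being the largest second-hour step among the 22 genes by the probe set read for each. Its second probe set, at 99.4, 139.0 and 200, gave 0.48 and 1.01. The size at 2 h ranked 159 of 6896 genes from the top.

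Sqle, the epoxidase that controls entry into the sterol branch, had signals of 488.2, 615.8 and 760.3, which is a log2 ratio of 0.64 at 2 h after 0.34 at 1 h. Sc5d, a desaturase of the last steps, was at 150.4, 218.3 and 257.3, a log2 ratio of 0.77 at 2 h, which is above 0.8 after quantile normalization (0.81) or cyclic loess (0.83). Its probe sets disagreed, since the other one was at 112.3, 115.8 and 102.1, a log2 ratio of -0.14. Sc5d was the 1 gene among the 10 with several probe sets at or above 100 whose probe sets had opposite signs at 2 h.

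Removal of the methyl groups that remain after Cyp51 needs the oxidase Msmo1, the dehydrogenase Nsdhl and the reductase Hsd17b7, which act in sequence. Msmo1 measured 375.9, 425.3 and 525.9, a log2 ratio of 0.48 at 2 h. Hsd17b7 was at 261.9, 321.1 and 386.1, a log2 ratio of 0.56 at 2 h. Its 3 probe sets at or above 100 ranged from 0.56 to 1.07 at 2 h, so that a call depends on the probe set read. Nsdhl, the enzyme between them, was at 281.6, 265.3 and 302.7, a log2 ratio of 0.10 at 2 h.

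The other genes of this branch were not past 0.4 in either direction at 2 h. Fdft1, the squalene synthase, measured 437.6, 409.0 and 455.2, a log2 ratio of 0.06 at 2 h. Ebp, a sterol isomerase, had signals of 620.9, 591.2 and 589.3, which came to -0.08. Lss, which closes squalene epoxide to lanosterol and so stands between Sqle and Cyp51, was at 207.7, 216.4 and 172.9, a log2 ratio of -0.26. Its second probe set came to -0.33 at 2 h and, unlike the first (0.06), was already lower at 1 h (-0.39). Neighbouring enzymes of 1 route therefore had values on both sides of 0. At 2 h, genes with signals similar to Lss had a spread of 0.25, and those similar to Ebp had 0.19. The median over the 9 genes was 0.18 at 1 h and 0.48 at 2 h, with 7 above 0 at 2 h and 2 below. The reductase genes Tm7sf2 and Dhcr7 stayed below 100.

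**Figure D3:**
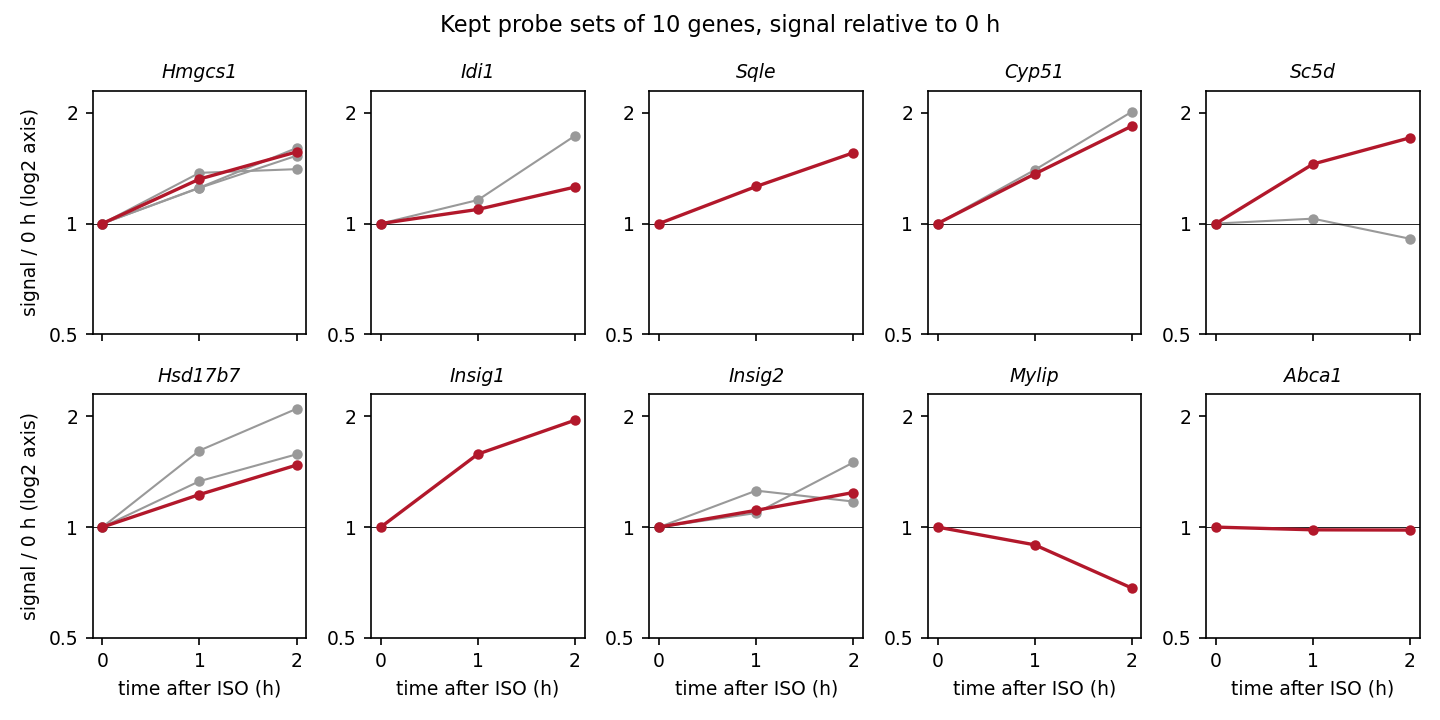
Course of every probe set at or above 100 on 1 or more arrays for 10 genes, as the ratio of MAS5 signal to that at 0 h (vertical axis, spaced in log2) by hours with ISO (horizontal axis), from single arrays and hence without error bars. Red lines stand for the probe set read for the gene and grey lines for its others; the probe sets of Hmgcs1 lie close together with log2 ratios from 0.49 to 0.68 at 2 h, whereas those of Sc5d part, at 0.77 and -0.14.

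Among the sensors, Insig1 had signals of 805.3, 1271.7 and 1572.3. By the probe set read for each gene, it had the largest log2 ratio of the 22 genes at both times, with 0.66 at 1 h and 0.97 (1.95-fold) at 2 h, the latter at rank 142 of 6896. Single other probe sets lay above it, that of Hsd17b7 with 0.69 at 1 h and 1.07 at 2 h and that of Cyp51 with 1.01 at 2 h. Around Insig1, genes of similar signal had a spread of 0.19 at 2 h. More of the change fell in the first hour than in the second, where the log2 ratio was 0.31. Its relative Insig2 measured 488.1, 542.2 and 606.0, a log2 ratio of 0.31 at 2 h. Its 3 probe sets at or above 100 ranged from 0.23 to 0.58. Scap, the escort of SREBP2, was at 316.5, 306.2 and 260.1, a log2 ratio of -0.28 at 2 h. Srebf2, which encodes SREBP2 itself, stayed below 100 with signals of 61.9, 62.3 and 69.0.

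Promoter sequence is given for 5 of the genes with higher signals, 1 of which (Msmo1) lacks TGACG, and for Mylip, whose signal was lower, so that the letters of each can be read beside its course. The windows are from a table of RefSeq promoters (GRCm38.p6). It paired 25 of the 31 genes with a window and not Fdps, Fdft1, Sqle, Stard4, Npc1 and Abcg1. The 250 bases before the transcription start are printed 5′ to 3′ in the direction of the gene. Capitals mark 3 motifs on either strand, the sterol response element in the form TCACNCCAC, the NF-Y box CCAAT, which shows as ATTGG where it lies on the other strand, and the core of the cyclic AMP response element, TGACG, which then shows as CGTCA. The Hmgcs1 window is chr13:119690101-119690350 on the plus strand, that of Insig1 chr5:28071162-28071411 on the plus strand, that of Cyp51 chr5:4104698-4104947 on the minus strand, that of Hsd17b7 chr1:169969206-169969455 on the minus strand, that of Msmo1 chr8:64733579-64733828 on the minus strand and that of Mylip chr13:45389492-45389741 on the plus strand.
Hmgcs1: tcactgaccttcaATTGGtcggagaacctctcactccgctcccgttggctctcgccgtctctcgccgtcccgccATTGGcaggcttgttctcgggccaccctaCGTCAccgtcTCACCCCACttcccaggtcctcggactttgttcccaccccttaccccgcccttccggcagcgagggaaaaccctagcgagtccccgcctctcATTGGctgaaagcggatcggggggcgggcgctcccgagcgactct
Insig1: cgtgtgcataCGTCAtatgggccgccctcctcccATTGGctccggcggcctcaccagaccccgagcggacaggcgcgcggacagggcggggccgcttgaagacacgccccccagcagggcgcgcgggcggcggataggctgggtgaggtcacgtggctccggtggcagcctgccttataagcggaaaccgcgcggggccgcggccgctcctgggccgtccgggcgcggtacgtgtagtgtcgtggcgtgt
Cyp51: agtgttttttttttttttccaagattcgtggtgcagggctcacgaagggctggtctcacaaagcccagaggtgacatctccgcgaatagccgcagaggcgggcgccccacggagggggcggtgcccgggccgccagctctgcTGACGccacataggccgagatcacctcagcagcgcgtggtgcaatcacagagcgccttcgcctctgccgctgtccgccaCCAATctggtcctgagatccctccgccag
Hsd17b7: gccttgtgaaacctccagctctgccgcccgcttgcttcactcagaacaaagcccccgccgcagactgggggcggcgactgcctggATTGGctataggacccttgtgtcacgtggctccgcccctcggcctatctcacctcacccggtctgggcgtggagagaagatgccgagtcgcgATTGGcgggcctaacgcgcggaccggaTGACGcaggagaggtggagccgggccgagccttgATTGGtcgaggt
Msmo1: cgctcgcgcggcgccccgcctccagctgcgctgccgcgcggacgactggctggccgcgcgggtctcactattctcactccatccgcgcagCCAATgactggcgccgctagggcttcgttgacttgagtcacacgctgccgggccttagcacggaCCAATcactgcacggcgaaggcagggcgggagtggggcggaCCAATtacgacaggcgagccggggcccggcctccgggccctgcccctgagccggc
Mylip: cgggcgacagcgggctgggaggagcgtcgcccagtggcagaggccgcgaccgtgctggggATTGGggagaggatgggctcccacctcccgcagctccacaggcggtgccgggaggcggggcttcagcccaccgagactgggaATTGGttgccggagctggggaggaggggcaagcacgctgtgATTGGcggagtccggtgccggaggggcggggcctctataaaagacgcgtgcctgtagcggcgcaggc

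Hmgcs1 was the 1 gene of the 25 whose full window of 300 bases, 250 before and 50 after the start, held TCACNCCAC. It does so as TCACCCCAC, whose first letter lies 137 bases before the start, and 1.44% of the 27025 genes in the table hold the motif. CCAAT was in the windows of 20 of the 25 genes (80%), against 41.1% of all genes, and these include Mylip and Lss with lower signals as well as Insig1 and Cyp51 with higher ones. TGACG was in 11 of 25 (44%), against 23% of all genes, namely Hmgcs1, Insig1, Cyp51, Hsd17b7, Sc5d, Insig2, Nsdhl, Ebp, Srebf2, Soat1 and Nr1h2. Of the 8 genes past 0.4 at 2 h, Pmvk and Msmo1 did not hold it and Sqle had no window here. The full palindrome TGACGTCA, which contains TGACG, was in none of the 25, against 2.03% of all genes. Such matches describe the letters only.

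Genes of uptake control and intracellular movement were read for all 4 members. Mylip, a ubiquitin ligase that targets lipoprotein receptors for breakdown, had signals of 511.2, 457.6 and 349.2. By the probe set read for each gene, its log2 ratio was the lowest of the 22 at both times (the second one of Lss was lower at 1 h), with -0.16 at 1 h and -0.55 at 2 h, and 3.93% of all genes were lower at 2 h. Genes of similar signal had a spread of 0.23 at 2 h. Stard4, a cytosolic sterol carrier, measured 151.6, 153.0 and 162.5, a log2 ratio of 0.10 at 2 h.

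Npc1 and Npc2 work together to release cholesterol from lysosomes. Npc1 had signals of 169.3, 189.4 and 172.7, and Npc2 had signals of 2407.6, 2454.1 and 2392.3. Their log2 ratios at 2 h were 0.03 and -0.01, and the second probe set of Npc2 at or above 100 came to 0.00. The median over the 4 genes was 0.02 at 1 h and 0.01 at 2 h.

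Of the export pumps, Abca1, which loads cholesterol onto lipid-poor apolipoprotein, had signals of 1173.1, 1153.3 and 1151.5. These are log2 ratios of -0.02 at 1 h and -0.03 at 2 h. Abcg1, which exports cholesterol to lipoprotein particles, was at 487.3, 493.8 and 579.0, a log2 ratio of 0.25 at 2 h. Both pumps and Mylip are LXR targets, and their log2 ratios at 2 h were thus -0.03, 0.25 and -0.55. Nr1h3 stayed below 100, with signals of 79.4, 53.0 and 59.6, and Nr1h2 had no probe set of 1 symbol here. The same held for Soat1, the enzyme that esterifies cholesterol for storage.

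The 6 genes below 100 were Mvd, Mvk, Dhcr7, Srebf2, Tm7sf2 and Nr1h3. The highest signal among them was 79.4, for Nr1h3, and the lowest peak among the genes read was 162.5, for Stard4. No cholesterol gene thus peaked between these values. Mvk had signals of 56.4, 45.2 and 31.1 and would be called lower at 2 h without the limit, with a log2 ratio of -0.86, and its second probe set came to -0.90. Mvd had signals of 51.0, 40.3 and 38.2, Tm7sf2 had 71.2, 59.5 and 59.1, and Dhcr7 had 65.2, 61.3 and 60.6. All 4 of these dim synthesis genes had a lower signal at 2 h than at 0 h, unlike most of the synthesis genes that were read. Among the brighter genes that were read, 4235 of 6896 were lower in the same comparison. The share among genes below 100 was not counted. Without a filter, the median log2 ratio over all 18194 genes was -0.07 at 2 h.

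A list of 37 other sterol genes, for SREBP processing, oxysterol synthesis, uptake, transfer between membranes and LXR partners, was read through 23 genes. None was called in any of the 3 comparisons, where at most 2.73% of all genes were called higher and at most 0.812% lower. At 1 h their median was 0.01 on the log2 scale, beside -0.02 over all genes read. At 2 h it was -0.16, beside -0.07 over all genes read. At that time 8 genes of the list were above 0 (34.8%, against 38.5% of all genes) and 15 below. Srebf1, which encodes the SREBP of fatty acid synthesis and is also an LXR target, measured 2132.6, 2104.1 and 1795.8, a log2 ratio of -0.25 at 2 h. Rnf139, a ubiquitin ligase of the endoplasmic reticulum that binds INSIG proteins, was at 562.6, 623.7 and 414.6, a log2 ratio of -0.44. Osbp, an oxysterol-binding transfer protein, had 469.4, 472.2 and 322.3, a log2 ratio of -0.54. Gramd1b, which carries sterol from the plasma membrane to the endoplasmic reticulum, had 90.9, 117.6 and 134.2, a log2 ratio of 0.56. Gramd1b was read only through the arrays of 1 h and 2 h, where it was higher, so its higher values are partly due to the filter. Rxrb, a retinoid receptor that pairs with the LXRs, was at 230.3, 143.7 and 157.1, with log2 ratios of -0.68 at 1 h and -0.55 at 2 h. Among those with the brightest probe sets, Cav1, Vldlr, Osbpl9 and Lpcat3 lay between -0.18 and 0.19 at 2 h.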

How the data were processed

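Total RNA of iBATs at 0, 1 and 2 h of ISO was labelled and hybridized to Affymetrix Mouse Genome 430 2.0 arrays, 1 per time point, and the authors deposited a linear intensity for each probe set, the MAS5 signal (the algorithm is credited to the submitters' processing notes). These values still hold probe sets that were absent or below 100 in all arrays, a filter described in the methods. Number of arrays limits the precision, and all 3 value columns were used. Scan dates were not given in the sources used here.

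Probe sets were named through the platform annotation of the archive: of 45101 probe sets, 34958 carried 1 symbol, 932 several and 9211 none. Log2 ratios were computed in Python 3.11.15 (numpy 2.4.6, pandas 2.3.3) on all 18194 genes. Signals of 0 were set to 0.1. Spread is the scaled median absolute deviation, over all genes read or in 20 bins of mean signal. The code that picks, divides and counts was tested on simulated data with planted ratios, which gives no error for the calls. The genes, role groups, motifs and other lists were chosen with earlier results of these data known. The rule for named genes was to name every gene of the set, with all signals for those called, for the 5 highest and 5 lowest at 2 h and for those whose probe sets differ in call, and to name called genes and up to 4 bright ones from the other sterol list; Rnf139, Osbp, Gramd1b, Rxrb and Srebf1 were added for their values. Alternatives were other filters, treatments of low signals, scalings (limma 3.58.1 under R 4.3.3 for cyclic loess), probe sets and thresholds. The limit of 0.4, and the alternatives for the medians over all synthesis enzymes and over the other genes, were added after the values were seen. Some sterol genes are not analysed here. Promoter windows came from a table of RefSeq sequence (GRCm38.p6), and figures were drawn with matplotlib 3.10.9.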

Additional observations from a re-analysis of the deposited data

How the results depend on the processing

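Over the alternative filters, scalings, pseudocounts and probe sets run, Insig1 stayed above 0.8 at 2 h, between 0.93 and 0.99 on the log2 scale, and no cholesterol gene was called at 1 h or between 1 h and 2 h. The 2 genes called higher at 2 h became 1 with 32 added to every signal, where Cyp51 came to 0.79, 0 with a limit of 2-fold and 8 with a log2 limit of 0.4. The count of genes called lower at 2 h, 0 as reported, became 1 without a filter (Mvk) and 1 with the limit of 0.4 (Mylip). Without probe sets whose suffix marks shared sequence Hsd17b7 was at 1.07, and with the median over probe sets Sc5d was at 0.32. The median log2 ratio at 2 h lay between 0.21 and 0.55 for the mevalonate genes over all settings. For the branch from squalene it lay between 0.10 and 0.51, with 0.10 without a filter, where 2 dim genes enter, and for all synthesis enzymes it was likewise 0.10 without a filter, where 4 enter (0.33 to 0.51 otherwise). For uptake control and movement it was -0.28 with at least 200 on 1 or more arrays, where 2 genes, Mylip and Npc2, remain. The other 306 values of counts and medians moved by less than the spread over all genes or by at most 1.5 times. No paired analysis was possible because there is 1 array per time point. For the same reason leaving out an array ends a comparison, and the size of change that separate cultures would give by chance is unknown.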

Other observations

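Among other sterol genes below the reading limit, Ch25h, which makes the oxysterol that restrains SREBP processing in immune cells, had signals of 38.4, 38.2 and 78.3 at 0, 1 and 2 h, a log2 ratio of 1.03 on signals at which no gene was read. Cyp7b1, an enzyme of oxysterol breakdown, had signals of 38.7, 40.0 and 20.2. A dim probe set of Stard4, the sterol carrier, was at 26.9, 27.9 and 64.6, a log2 ratio of 1.26 at 2 h, whereas its 2 probe sets above 100 came to 0.10 and 0.26.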
